A study of Mus musculus with 48 samples.

Results

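The genes described here belong to the integrated stress response and to asparagine, cysteine and serine synthesis, and were followed across 3 lines of mouse embryonic stem cells. The 10 members are Atf4, Ddit3, Trib3, Chac1, Asns, Cth, Phgdh, Psat1, Psph and Shmt2, taken by symbol, and each had 1 of the 48321 rows of the RNA-seq table. All 10 passed the filter on low values and were among the 16179 genes tested. The lines were male R1 cells of the 129SV strain, grown without serum in 2i medium with LIF, that is, with the MEK inhibitor PD0325901 and the GSK3 inhibitor CHIR99021, and moved to fibronectin before collection. The wild-type line (WT) was compared with a line in which the histone H3K4 methyltransferases Mll3 (Kmt2c) and Mll4 (Kmt2d) were both knocked out (dKO) and with a line in which both were catalytically deficient (dCD). Each line had 3 libraries of polyadenylated RNA. Only 1 line stood for each genotype, so a clone cannot be told apart from its genotype. Whether replicates were separate cultures is not stated, and p-values measure only the spread between libraries, perhaps a technical one.

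In the integrated stress response, kinases that sense amino acid shortage, unfolded protein, double-stranded RNA or heme shortage phosphorylate the initiation factor eIF2, which lowers most translation while raising that of the Atf4 message. ATF4, a basic leucine zipper (bZIP) transcription factor, then activates genes of amino acid synthesis and transport, tRNA charging and, under lasting stress, cell death. Because ATF4 protein is set largely at translation, its mRNA level is not a measure of its activity. Serine is made from the glycolytic intermediate 3-phosphoglycerate by Phgdh, Psat1 and Psph, and Shmt2 passes its carbon to folate in the mitochondrion. Proliferating pluripotent cells rely on serine and glycine for nucleotide and methyl group supply.

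Depth ranged from 21090624 to 56249770 reads per library, recovered from the table as whole multiples of its steps. At these depths the 10 genes held between 180 and 20359 reads in a library, the lowest counts being those of Ddit3, Cth and Chac1. The pluripotency markers that define embryonic stem cells were present in all 3 lines: the lowest value of Pou5f1 was 1262 TPM (a share of all transcripts corrected for gene length and depth) and that of Nanog was 939 TPM. Kmt2c lay between 7.44 and 7.995 TPM in dKO and between 19.7 and 21.9 TPM in WT (limma adjusted p = 8.37e-09). For Kmt2d the dKO libraries were the higher ones (80.5 to 84.8 TPM, against 65.2 to 67.4 TPM in WT). Where the genes were edited is not stated, and reads from outside an edit cannot check it. Genes were tested with limma on log2(TPM + 1), and called where the p-value adjusted over all tested genes (Benjamini and Hochberg) was under 0.05. By this rule 71.8% of all tested genes differed between dKO and WT, 58.4% between dCD and WT and 69.3% between dKO and dCD. A call alone therefore says little, and the size of each difference is read beside it.

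In WT cells Asns was the most abundant of the 10 messages (532.9 ± 12.3 TPM, SD, n = 3), followed by Shmt2 (487 ± 4.05 TPM) and Atf4 (330.4 ± 14.4 TPM). Phgdh (153 ± 6.55 TPM) and Psat1 (143 ± 9.84 TPM) came next, and they were the only neighbours in the order whose libraries overlapped. Below them stood Cth, Trib3, Psph and Chac1, with Ddit3 last at 16.9 ± 0.739 TPM. In dKO the order was different: Shmt2 led with 534 ± 6.95 TPM, Asns stood behind Atf4, Phgdh and Psat1 at 170.3 ± 1.84 TPM, and Cth stood last, with no overlap between neighbours. In dCD the 3 highest messages, Asns, Shmt2 and Atf4, overlapped their neighbours in the order, as did Psph with Trib3 and Ddit3 with Chac1.

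**Figure D1:**
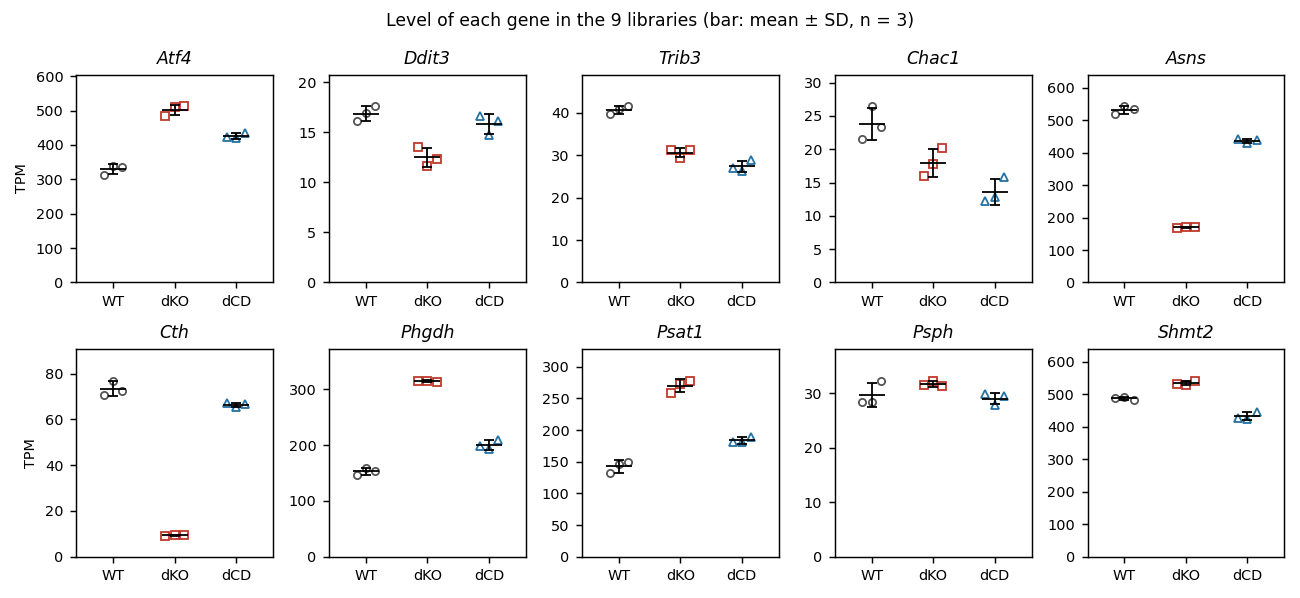
Level of each of the 10 genes in TPM (vertical axis, from 0) in every library of WT, dKO and dCD; points are libraries, and the bar with whiskers is the mean ± SD (n = 3). Asns and Cth are far lower in dKO than in both other lines, Phgdh and Psat1 are highest in dKO and intermediate in dCD, and Psph overlaps between WT and both mutant lines.

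Promoters were read to see which of the 10 genes carry the element through which ATF4 and its C/EBP partners act. RefSeq promoters of build GRCm38.p6, from 250 bases before the start to 50 after it, matched 9 of the 10 genes, all but Cth. The 8-letter core TGATGNAA was searched on both strands. It stood in 3 of the 9 promoters, against 2.59% of the 10540 tested genes with a promoter and 4.51% of all 27025 genes in the table. Some lists of related genes described below held it in like shares: 6 of 18 other ATF4 targets, 5 of 14 in the tRNA synthetase list, 2 of 8 transporters and 2 of 9 bZIP factors. The remaining pathway lists did not. It was in 1 of 16 promoters of the transsulfuration and glutathione list and in 0 of 12 for eIF2 control. It was also in 0 of 18 around glycine and folate, 0 of 18 for endoplasmic reticulum stress and 0 of 7 for mitochondrial chaperones. Asns holds it as TGATGAAA, first base 23 before the start, and Chac1 as TTGCATCA on the other strand, first base 193 before it. Trib3 holds TTACATCA, also on the other strand, with its first base 15 into the transcript. The longer element of the endoplasmic reticulum stress response (ERSE: CCAAT and CCACG with 9 bases between, on both strands) was in none of the 9, in 0.137% of all genes in the table and in 9 of 18 promoters of the endoplasmic reticulum stress list given below, so no match overlapped another. The 250 bases before the start are shown for the matched genes on which the results below turn, with the element in capitals where there is one. Asns (chr6:7693210-7693459, minus strand) fell most of these in dKO, and Chac1 (chr2:119350992-119351241, plus strand) in dCD, while Phgdh (chr3:98339970-98340219, minus strand) and Psat1 (chr19:15925060-15925309, minus strand, the first of 2 starts) rose. For Trib3 the 30 bases around the element are given (chr2:152344028-152344057, minus strand).
Asns: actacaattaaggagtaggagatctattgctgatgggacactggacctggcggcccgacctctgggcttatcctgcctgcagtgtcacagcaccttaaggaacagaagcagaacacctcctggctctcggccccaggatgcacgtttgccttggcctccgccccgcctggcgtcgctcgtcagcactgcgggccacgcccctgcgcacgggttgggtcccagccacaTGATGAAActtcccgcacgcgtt
Chac1: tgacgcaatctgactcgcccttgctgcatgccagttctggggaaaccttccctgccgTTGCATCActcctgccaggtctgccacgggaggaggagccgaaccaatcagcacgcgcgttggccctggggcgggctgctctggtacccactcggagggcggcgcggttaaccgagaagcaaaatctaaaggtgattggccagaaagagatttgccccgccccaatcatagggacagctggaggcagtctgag
Trib3: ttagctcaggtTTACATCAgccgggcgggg
Phgdh: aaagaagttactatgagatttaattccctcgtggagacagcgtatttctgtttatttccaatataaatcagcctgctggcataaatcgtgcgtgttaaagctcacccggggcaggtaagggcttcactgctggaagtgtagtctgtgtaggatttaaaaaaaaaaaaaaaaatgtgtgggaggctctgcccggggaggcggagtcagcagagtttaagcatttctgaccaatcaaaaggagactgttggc
Psat1: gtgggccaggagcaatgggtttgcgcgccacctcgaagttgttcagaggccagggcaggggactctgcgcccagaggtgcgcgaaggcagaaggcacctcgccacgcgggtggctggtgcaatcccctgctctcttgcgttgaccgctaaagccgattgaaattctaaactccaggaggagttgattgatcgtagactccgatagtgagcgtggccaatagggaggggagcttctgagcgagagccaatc
The stretches shown for Phgdh and Psat1 hold no match to it. A match is a description of these letters and not evidence of binding. Sites outside the bases read were not searched, so a gene without a match may hold the element elsewhere.

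Of the regulators, Atf4, the central activator of the response, rose in both mutant lines. It measured 314, 340.1 and 337 TPM in WT, 484, 509 and 513 TPM in dKO, and 422, 421 and 436 TPM in dCD. The libraries of the 3 lines did not overlap, with WT lowest and dKO highest. The log2 fold change was 0.60 in dKO (SE 0.0342, limma adjusted p = 8.32e-08) and 0.37 in dCD (SE 0.0342, limma adjusted p = 7.49e-06). In bulk RNA fewer cells with a message cannot be told apart from less message per cell, here and below.

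Ddit3 encodes CHOP, the bZIP factor induced downstream of ATF4 that is linked to cell death under lasting stress. The WT libraries held 16.1, 16.9 and 17.6 TPM, whereas dKO held 13.6, 11.7 and 12.3 TPM, so that every dKO library lay below every WT library. This fall had a log2 size of -0.40 (SE 0.0630, limma adjusted p = 0.000190). The dCD libraries stood at 16.7, 14.8 and 16.1 TPM, overlapping WT, with a log2 difference of -0.09 (95% confidence interval -0.23 to 0.06, limma adjusted p = 0.271). The models of Ddit3 overlap those of Mbd6 and Mars in a GRCm38 table, and without a stated strand setting reads in such overlaps cannot be told apart. Mars had a log2 fold change of 0.15 in dKO (limma adjusted p = 0.000236), and Mbd6 did not pass the test there (log2 difference 0.06, limma adjusted p = 0.304).

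Trib3, a pseudokinase that is induced by ATF4 and CHOP and restrains them, fell in both mutant lines. It went from 39.7, 40.9 and 41.5 TPM in WT to 31.2, 29.3 and 31.3 TPM in dKO and to 26.97, 26.2 and 28.9 TPM in dCD. The log2 fold changes were -0.40 (SE 0.0421, limma adjusted p = 9.83e-06) and -0.56 (SE 0.0421, limma adjusted p = 1.59e-06). All 3 lines were separate, with dCD lowest.

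Chac1, an enzyme that degrades glutathione and is among the most ATF4-responsive genes, also fell in both. Its level was 21.6, 26.5 and 23.3 TPM in WT, 16.0, 17.7 and 20.1 TPM in dKO and 12.2, 12.8 and 15.9 TPM in dCD. No mutant library reached the lowest WT library. The fall was -0.39 in dKO (SE 0.109, limma adjusted p = 0.00870) and -0.77 in dCD (SE 0.109, limma adjusted p = 0.000163) on the log2 scale. Its spread between libraries was the widest of the 10 genes, with a coefficient of variation of 10.4% in WT, 11.5% in dKO and 14.6% in dCD.

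The largest differences were in the enzymes of asparagine and cysteine synthesis, and they were found in dKO. Asns, asparagine synthetase, stood at 519, 544 and 536 TPM in WT, while its dKO libraries held 168, 170.7 and 172 TPM. Its mean in WT was 3.13 times that in dKO, and the difference of log2(TPM + 1) was -1.64 (SE 0.0220, limma adjusted p = 3.46e-12). The dCD libraries held 442, 431 and 439 TPM, a smaller fall of -0.28 on the log2 scale (SE 0.0220, limma adjusted p = 1.91e-06). The ratio of Asns to Atf4 in the same library, both in TPM, was 1.61 ± 0.0358 in WT, 0.339 ± 0.00717 in dKO and 1.03 ± 0.0212 in dCD (SD, n = 3).

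Cth, cystathionine gamma-lyase, makes cysteine from cystathionine in the last step of transsulfuration. It was present at 70.5, 76.9 and 72.6 TPM in WT but at 8.98, 9.31 and 9.62 TPM in dKO, where it rested on 194 to 257 reads per library. The mean in WT was 7.89 times that in dKO, or -2.85 on the log2 scale (SE 0.0382, limma adjusted p = 3.46e-12). In dCD the level was 67.2, 65.3 and 66.5 TPM, and the fall against WT was -0.14 on the log2 scale (SE 0.0382, limma adjusted p = 0.00873). The dCD libraries thus lay just below the lowest WT library, while the dKO libraries lay below all others by a wide margin.

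The first enzymes of serine synthesis moved the other way. Phgdh, which oxidises 3-phosphoglycerate and commits it to serine, rose from 146, 159 and 153 TPM in WT to 316, 315 and 314 TPM in dKO and to 198, 193 and 209 TPM in dCD. The log2 fold change was 1.04 in dKO (SE 0.0357, limma adjusted p = 1.90e-09) and 0.39 in dCD (SE 0.0357, limma adjusted p = 7.31e-06). A pseudogene, Phgdh-ps1, has its own row in the table and is listed at 0 in all 9 libraries.

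Psat1, the transaminase of the second step, rose from 132, 147 and 150.1 TPM in WT to 259, 274 and 278 TPM in dKO and to 181, 181 and 189.9 TPM in dCD. The log2 fold change was 0.92 in dKO (SE 0.0479, limma adjusted p = 4.21e-08) and 0.37 in dCD (SE 0.0479, limma adjusted p = 8.76e-05). For Phgdh and Psat1 alike, the 3 lines did not overlap, and dCD lay between WT and dKO. The ratio of Phgdh to Psat1 within a library was 1.07 ± 0.0454 in WT, 1.17 ± 0.0482 in dKO and 1.09 ± 0.0169 in dCD (SD, n = 3).

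Psph, the phosphatase that completes serine synthesis, did not pass the test against WT in either mutant line. It measured 28.3, 28.4 and 32.2 TPM in WT, 31.5, 32.3 and 31.3 TPM in dKO and 29.8, 27.8 and 29.4 TPM in dCD, with overlap in both cases. The log2 difference was 0.10 in dKO (95% confidence interval -0.01 to 0.21, limma adjusted p = 0.103) and -0.03 in dCD (interval -0.14 to 0.09, limma adjusted p = 0.681). Without WT replicate 3, the highest WT library, the dKO value was 0.16 and passed (limma adjusted p = 0.00514). Without that library the dCD value changed sign to 0.03 (limma adjusted p = 0.507). Gene models of Psph and the chaperonin gene Cct6a overlap, and Cct6a, at 466 ± 14.3 TPM in WT, is far more abundant.

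Shmt2, the mitochondrial serine hydroxymethyltransferase, differed by little. Its levels were 487, 491 and 483 TPM in WT, 530.3, 529 and 542 TPM in dKO and 425, 425 and 446 TPM in dCD. The libraries of the 3 lines did not overlap, and the log2 fold change was 0.13 in dKO (SE 0.0227, limma adjusted p = 0.000393) and -0.17 in dCD (SE 0.0227, limma adjusted p = 8.76e-05). After median-ratio scaling between libraries the dKO value was 0.03 and no longer passed (limma adjusted p = 0.282). The models of Shmt2 and Ndufa4l2, a far less abundant message, overlap in the GRCm38 table.

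**Figure D2:**
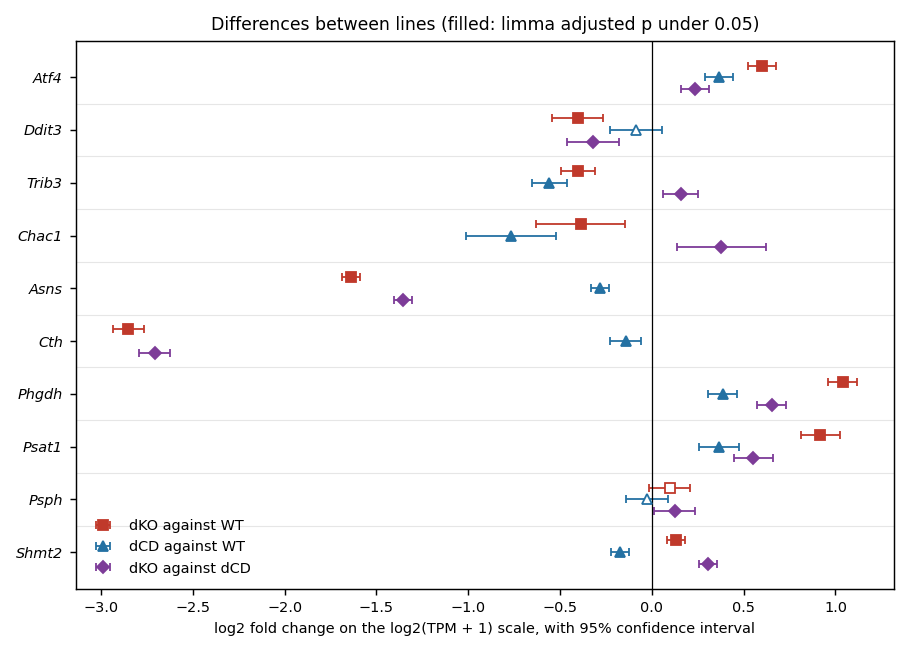
Log2 fold change of each gene on the log2(TPM + 1) scale (horizontal axis) with its 95% confidence interval for dKO against WT, dCD against WT and dKO against dCD; filled symbols passed limma at an adjusted p under 0.05. Cth and Asns lie far to the left in both comparisons that involve dKO, while Phgdh and Psat1 lie to the right in all 3.

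Counted together, 4 of the 10 genes were higher and 5 lower in dKO than in WT, where the shares of tested genes were 43.4% higher and 28.4% lower. At least 2-fold, 1 was higher (Phgdh) and 2 lower (Asns and Cth), against 6.01% and 7.89% of tested genes. The median log2 fold change of the 10 was -0.14 in dKO, beside 0.10 over all tested genes. In dCD 3 were higher and 5 lower, against 28.9% and 29.5% of tested genes, and none reached 2-fold, a size at which 4.62% of tested genes were higher and 2.32% lower. Their median was -0.11, beside -0.01 over all tested genes. Libraries did not overlap for 9 of the 10 in dKO and for 8 in dCD, where the shares over all tested genes were 74.4% (45% higher and 29.4% lower) and 63.5% (31.2% higher and 32.3% lower). Both comparisons use the same WT libraries, so their values are given side by side and their likeness is not a result. The 10 had no common direction. After median-ratio scaling 3 were higher and 5 lower in dKO, and Phgdh was at 0.94 there, under 2-fold. The ATF4 element was searched only from 250 bases before the start to 50 after it, and not for Cth. Within these bases Asns, Chac1 and Trib3 held it, and all 3 fell in both mutant lines, by log2 sizes from -1.64 to -0.28. Genes with the same element in the related lists did not share that direction: of 13 tested, 10 were higher and 1 lower in dKO (5 and 2 after median-ratio scaling), and 7 higher and 2 lower in dCD. Their median was 0.23 in dKO, beside 0.10 over all tested genes, and 0.14 beside 0.01 after that scaling. In dCD it was 0.11 beside -0.01. Some rises in dKO were near the median of all tested genes, such as Aars (0.13), Tars (0.12) and Yars (0.07).

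The direct comparison of dKO with dCD asked where loss of the proteins and loss of their catalytic activity differed. All 10 passed it, 7 higher and 3 lower in dKO, against 42.3% and 27% of tested genes. After median-ratio scaling 5 were higher and 3 lower, and of all called genes 49.8% were higher in dKO, in place of 61.0%. Cth differed by -2.71 (SE 0.0382, limma adjusted p = 6.05e-12) and Asns by -1.36 (SE 0.0220, limma adjusted p = 1.49e-11) on the log2 scale. These were the only members past 2-fold, a size at which 7.36% of tested genes were lower and 3.6% higher in dKO. Libraries overlapped for none of the 10, where 73.1% of tested genes did not overlap, 44.7% of all being higher and 28.4% lower in dKO. Ddit3 was lower too, at -0.32 (SE 0.0630, limma adjusted p = 0.00109). Phgdh and Psat1 were higher in dKO by 0.65 (SE 0.0357, limma adjusted p = 7.81e-08) and 0.55 (SE 0.0479, limma adjusted p = 2.68e-06). Smaller rises were those of Chac1 (0.38, limma adjusted p = 0.0104), Shmt2 (0.30, limma adjusted p = 8.12e-07), Atf4 (0.23, limma adjusted p = 0.000133) and Trib3 (0.16, limma adjusted p = 0.00701). Psph was at 0.12 (limma adjusted p = 0.0470), a call lost in 10 of 17 other settings. The call for Trib3 was lost after median-ratio scaling (0.06, limma adjusted p = 0.215). Under quantile normalization Trib3 was at 0.07 (limma adjusted p = 0.187) and Chac1 at 0.27 (limma adjusted p = 0.0512). By limma's moderated F test over all 3 lines, 9 of the 10 differed, all but Psph (limma adjusted p = 0.0863), where 82.6% of tested genes did.

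**Figure D3:**
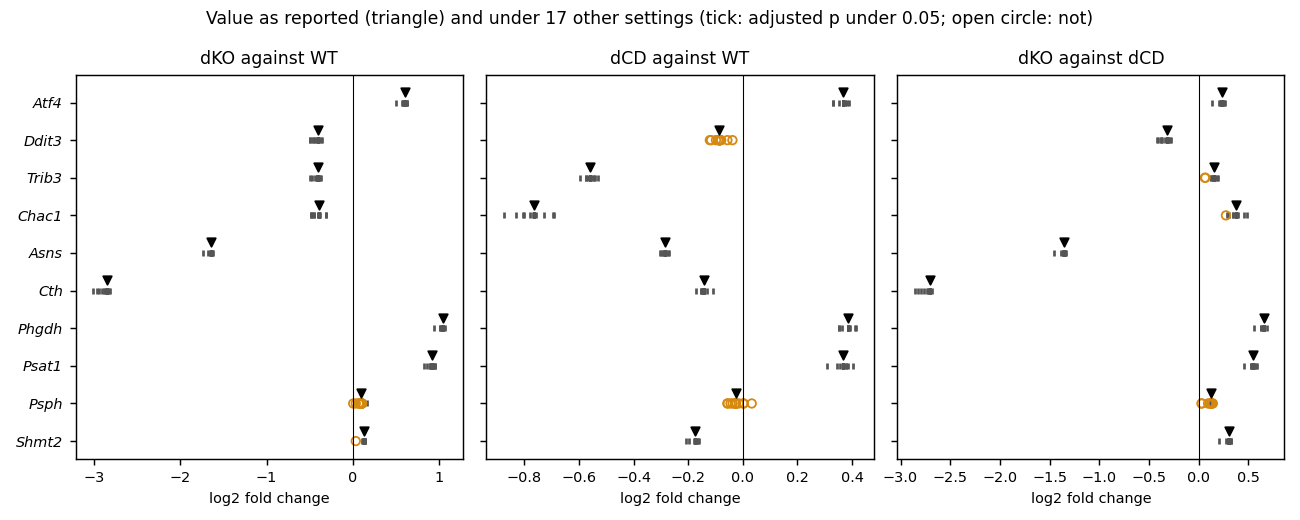
Log2 fold change of each gene (horizontal axis, a scale per panel) as reported (triangle) and under 17 other settings of scaling, filter, pseudocount, model or left-out library; ticks passed at an adjusted p under 0.05 and open circles did not. Asns, Cth, Phgdh, Psat1 and Atf4 passed in every setting and comparison, and Psph crosses 0 in dCD against WT.

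The other genes of the pathway were taken from 9 lists. A list of 10 bZIP factors that pair with ATF4 or are related to it held Atf3, Atf5, Cebpa, Cebpb, Cebpd, Cebpg, Jdp2, Batf3, Nfe2l1 and Nfe2l2. Of these 9 rose in dKO and none fell, 4 of them at least 2-fold. Among all tested genes 43.4% rose there, 6.01% at least 2-fold, and 28.4% fell. Nfe2l1 and Nfe2l2 rose by little there (0.08 and 0.07, limma adjusted p = 0.0146 and 0.0238). Atf3, a stress-induced factor, went from 1.596 ± 0.543 to 10.2 ± 1.07 TPM in dKO (SD, n = 3), a difference of 2.13 on the log2 scale (limma adjusted p = 1.36e-07). Cebpb went from 8.04 ± 0.823 to 19.9 ± 0.905 TPM (log2 fold change 1.21, limma adjusted p = 1.46e-07) and Atf5 from 56.4 ± 5.74 to 118 ± 3.27 TPM (1.06, limma adjusted p = 1.10e-07). Batf3 went from 0.353 ± 0.172 to 2.88 ± 0.195 TPM (1.53, limma adjusted p = 6.36e-07). Atf3 and Batf3 were thus low in WT. The list's median log2 fold change was 0.67, beside 0.10 over all tested genes. In dCD 8 of the 10 rose and 2 fell, where 28.9% and 29.5% of all tested genes did. The list's median there was 0.73 beside -0.01. Atf3 reached 14.3 ± 0.716 TPM (log2 fold change 2.58, limma adjusted p = 7.71e-08) and Cebpb 30.8 ± 2.36 TPM (1.82, limma adjusted p = 1.80e-08), while Jdp2 fell (-0.29, limma adjusted p = 0.000541). After median-ratio scaling 7 rose and 1 fell in dKO. Between dKO and dCD 3 were higher and 6 lower in dKO, against 42.3% and 27% of all tested genes.

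Of 16 genes for the eIF2 kinases and eIF2 control, 7 rose and 3 fell in dKO, where 43.4% and 28.4% of all tested genes did. In dCD the counts were again 7 and 3, where 28.9% and 29.5% of all tested genes rose and fell. Eif2b5, the catalytic subunit of the eIF2B exchange factor, moved most: it fell from 508 ± 9.13 TPM in WT to 209 ± 2.67 TPM in dKO (log2 fold change -1.28, limma adjusted p = 1.88e-11) and to 329 ± 6.39 TPM in dCD (-0.63, limma adjusted p = 6.57e-09). Eif2ak1, the heme-regulated kinase, rose in dKO (0.36, limma adjusted p = 1.72e-06) and Eif2ak2, the kinase that senses double-stranded RNA, rose in dCD (0.33, limma adjusted p = 0.000293). Ppp1r15a, the stress-induced phosphatase subunit that reverses eIF2 phosphorylation, fell in dKO (-0.29, limma adjusted p = 5.48e-05) and rose in dCD (0.15, limma adjusted p = 0.00559). The median of the list was 0.06 in both, beside 0.10 over all tested genes in dKO and -0.01 in dCD, and in dKO it became -0.04 after median-ratio scaling, with 5 higher and 6 lower.

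Other ATF4 targets were mixed. Of 20 tested, 11 rose and 5 fell in dKO (43.4% and 28.4% over all tested genes), and 8 rose and 5 fell in dCD (28.9% and 29.5%). Their medians were 0.24 in dKO and -0.0038 in dCD, beside 0.10 and -0.01 over all tested genes. Ddit4, an inhibitor of mTORC1 signalling, rose from 63.0 ± 1.41 TPM to 166 ± 2.17 TPM in dKO (log2 fold change 1.38, limma adjusted p = 5.22e-10) and to 145 ± 8.87 TPM in dCD (1.19, limma adjusted p = 4.27e-09). The cell death gene Bbc3 rose in both (0.82 and 0.36, limma adjusted p = 6.90e-09 and 7.86e-06). Gpt2, a mitochondrial alanine transaminase, fell in dKO from 41.4 ± 1.84 to 17.5 ± 0.0986 TPM (-1.20, limma adjusted p = 1.63e-08), and Eif4ebp1, a translation repressor, fell there too (-0.62, limma adjusted p = 3.18e-08). Ndrg1 also fell past 2-fold in dKO (-1.71, limma adjusted p = 4.73e-07) and was named after its value was seen. In dCD the stress cytokine gene Gdf15 fell from 18.0 ± 2.42 to 9.53 ± 0.678 TPM (-0.85, limma adjusted p = 3.58e-05).

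Aminoacyl-tRNA synthetases and the exporter Xpot moved little: 14 of 21 rose and 4 fell in dKO, none 2-fold, and 7 rose and 1 fell in dCD. Their medians were 0.11 and 0.03, beside 0.10 and -0.01 over all tested genes. Of all tested genes 43.4% rose and 28.4% fell in dKO, and 28.9% rose and 29.5% fell in dCD. Gars rose in both (0.29 and 0.30, limma adjusted p = 5.85e-07 and 1.06e-06), and Sars, which charges tRNA with serine, fell in dKO (-0.44, limma adjusted p = 3.11e-06). After median-ratio scaling the dKO counts were 4 higher and 5 lower, so their direction rests on the scaling. Of 11 tested transporters for amino acids 6 rose and 3 fell in dKO, and 1 rose and 4 fell in dCD. Their medians were 0.19 and -0.05, beside 0.10 and -0.01 over all tested genes. Between dKO and dCD 8 were higher in dKO and none lower, against 42.3% and 27% of all tested genes. After that scaling 6 were higher and 2 lower, with a median of 0.10 beside 0.01 over all tested genes. The cationic amino acid carrier Slc7a3 fell from 122 ± 1.83 TPM to 48.5 ± 1.30 TPM in dKO and 51.1 ± 2.25 TPM in dCD (-1.32 and -1.24, limma adjusted p = 2.83e-10 and 1.40e-09). Slc38a1, a glutamine carrier, rose in dKO from 56.8 ± 1.001 to 124 ± 1.94 TPM (1.12, limma adjusted p = 4.58e-10). The cystine carrier Slc7a11 was not tested, at most 0.778 TPM in any library.

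**Figure D4:**
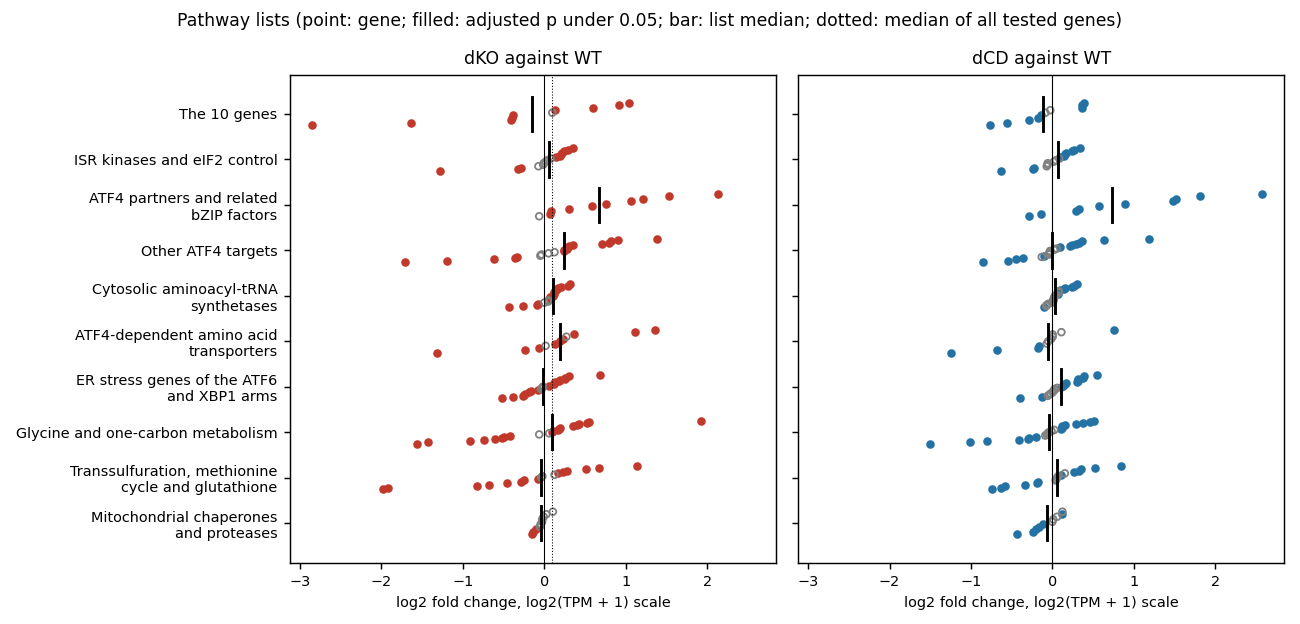
Log2 fold change (horizontal axis, log2(TPM + 1) scale) of every tested gene in the 9 pathway lists and of the 10 genes, for dKO against WT and dCD against WT; points are genes, filled where the adjusted p was under 0.05, the bar is the list median and the dotted line the median of all tested genes. The bZIP list has medians of 0.67 and 0.73, and the other pathway lists lie within 0.25 of 0.

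Genes around serine, glycine and folate numbered 11 higher and 8 lower of 21 in dKO, against 43.4% and 28.4% of all tested genes. In dCD 8 of them were higher and 7 lower, against 28.9% and 29.5%. Their median in dKO, 0.10, equalled that of all tested genes to this precision, and in dCD it was -0.04 beside -0.01, so as a list they were near the background. After median-ratio scaling the dKO counts were 8 higher and 9 lower. Several genes belong to glycine cleavage, the mitochondrial system that splits glycine to feed folate. Gldc, its decarboxylase, went from 268 ± 5.13 TPM in WT to 99.0 ± 3.35 TPM in dKO (log2 fold change -1.43, limma adjusted p = 3.98e-11) and 133 ± 2.08 TPM in dCD (-1.01, limma adjusted p = 1.47e-09). Amt, its aminomethyltransferase, fell in dKO from 222 ± 4.78 to 118 ± 3.33 TPM (-0.91, limma adjusted p = 1.42e-09) and rose slightly in dCD (0.12, limma adjusted p = 0.00570). Gcsh, the carrier protein of the system, named after its values were seen, fell in dKO (-0.61, limma adjusted p = 1.10e-08) and in dCD (-0.42, limma adjusted p = 4.74e-07). Dld, the subunit shared with other dehydrogenases, rose in dKO (0.52, limma adjusted p = 2.00e-07) and in dCD (0.38, limma adjusted p = 4.92e-06). Aldh1l1, which oxidises formyl-folate, fell in both (-1.56 and -1.50, limma adjusted p = 7.73e-10 and 3.05e-09), and the mitochondrial folate enzyme Mthfd2l rose in dKO from 0.654 ± 0.0989 to 5.29 ± 0.107 TPM (1.93, limma adjusted p = 1.16e-08).

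Around Cth, genes of transsulfuration, the methionine cycle and glutathione numbered 6 higher and 8 lower of 17 in dKO and 6 each way in dCD. The background shares, over every tested gene, were 43.4% and 28.4% in dKO and 28.9% and 29.5% in dCD. The list had medians of -0.04 and 0.06, beside 0.10 and -0.01 over all tested genes. Cbs, which makes the cystathionine that Cth cleaves, fell from 34.7 ± 3.04 TPM to 19.0 ± 0.853 TPM in dKO (-0.83, limma adjusted p = 1.55e-06) and 22.1 ± 1.58 TPM in dCD (-0.63, limma adjusted p = 2.55e-05), and was named after its values were seen. Cdo1, which oxidises cysteine, fell from 29.1 ± 0.524 to 6.94 ± 0.609 TPM in dKO (-1.92, limma adjusted p = 3.95e-10) but rose to 52.8 ± 1.30 TPM in dCD (0.84, limma adjusted p = 4.25e-07). Of the enzymes that build glutathione from cysteine, Gclc rose in dKO from 65.2 ± 1.92 to 145 ± 1.599 TPM (1.14, limma adjusted p = 1.06e-10). Gss, which adds glycine in the last step, fell there from 63.1 ± 1.97 to 15.2 ± 0.251 TPM (-1.98, limma adjusted p = 1.28e-11) and rose in dCD to 80.9 ± 2.13 TPM (0.35, limma adjusted p = 6.95e-06). The direct comparison of dKO with dCD gave -2.34 for Gss (limma adjusted p = 5.71e-12) and -2.76 for Cdo1 (limma adjusted p = 4.11e-11).

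A list for the ATF6 and XBP1 arms of the unfolded protein response held chaperones and folding enzymes of the endoplasmic reticulum, the sensors and factor Atf6, Ern1 and Xbp1, and the degradation genes Edem1, Sel1l, Syvn1 and Derl3. Of its 21 genes 10 were higher and 8 lower in dKO and 11 higher and 2 lower in dCD, none 2-fold. The background shares, over every tested gene, were 43.4% and 28.4% in dKO and 28.9% and 29.5% in dCD. The list's medians were -0.02 and 0.10, beside 0.10 and -0.01 over all tested genes. Syvn1 rose most in dKO (0.68, limma adjusted p = 2.43e-07). Hspa5, the main chaperone of this compartment, rose in dCD from 373 ± 16.97 to 545 ± 17.6 TPM (0.55, limma adjusted p = 4.49e-07), and Sdf2l1 fell in both lines (-0.52 in dKO and -0.40 in dCD, limma adjusted p = 4.16e-06 and 5.38e-05). After median-ratio scaling the dKO counts were 4 higher and 10 lower, with a median of -0.11 beside 0.01 over all tested genes. Mitochondrial chaperones and proteases numbered none higher and 3 lower of 10 in dKO, 8 lower after that scaling, and 1 higher and 5 lower in dCD. Their medians were -0.04 and -0.06, beside 0.10 and -0.01 over all tested genes. After that scaling the dKO median was -0.13, beside 0.01. The unscaled counts of this list have the same background shares as those above, and those shares do not apply to the scaled counts. Hspd1, the mitochondrial chaperonin, fell in dCD (-0.44, limma adjusted p = 1.27e-06).

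The genes whose profiles were most like each member over the 9 libraries were found by the root mean square difference of centred log2(TPM + 1) values. Genes with Gm, Rik, accession, clone or date-like names were skipped, so the closest genes are those among the names kept. For Cth this was Alpl, tissue-nonspecific alkaline phosphatase, with a difference of 0.0595 (mean TPM 340.9 in WT, 47.8 in dKO and 305 in dCD). Mme and Nrxn2 were closest to Asns (0.0508 and 0.0517), and Colec12 and Pgrmc1 to Phgdh (0.0323 and 0.0496). Colec12 was also the second closest to Psat1 (0.0509), after Unc93b1 (0.0507). Closest to Atf4 was Prdm11 (0.0410) and to Chac1 Begain (0.107). Prdm11 had mean TPM of 1.38 in WT, 2.62 in dKO and 2.19 in dCD. Begain (3.13, 2.49 and 1.55 TPM) and Nrxn2 (4.74, 0.938 and 4.12 TPM) were low too. At such levels this scale understates changes, so their fold changes in TPM can differ from those of the member. With 3 levels per profile many genes share a shape, and the values describe these libraries only.

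Markers of other cell types moved between the lines. Those of trophoblast summed to 109 to 119 TPM in WT, 133 to 138 TPM in dKO and 609 to 647 TPM in dCD, where Krt8 and Krt18 made up most of the sum. Of 9 tested, 7 were higher and 1 lower in dCD, 5 and 2 in dKO, and the defining factor Elf5 stayed at or under 0.0351 TPM. Primitive endoderm markers summed to 259 to 273 TPM in WT, 83.2 to 84.8 TPM in dKO and 458 to 478 TPM in dCD, mostly Sparc (254 ± 7.66 TPM in WT, 62.98 ± 1.39 TPM in dKO and 438 ± 8.55 TPM in dCD). The other members did not follow Sparc in dKO: of 8 tested, 4 were higher and 1, Sparc, lower. Foxa2 went from 0.291 ± 0.143 TPM in WT to 2.92 ± 0.250 TPM in dKO (1.61, limma adjusted p = 3.93e-07). The others that rose there were low too, with Gata4 the highest at 8.42 ± 0.419 TPM in dKO. In dCD 5 of the 8 were higher and none lower. Fibroblast and feeder markers summed to 88.6 to 109.8 TPM in any library, mostly Fbln1, and Dcn and Lum stayed at or under 0.495 TPM. The collagen genes of that list were higher in both mutant lines: Col1a1 went from 0.470 ± 0.0830 TPM in WT to 10.2 ± 0.161 TPM in dKO and 7.57 ± 0.0617 TPM in dCD, and Col1a2 from 0.0189 ± 0.0105 TPM to 1.28 ± 0.0549 and 6.45 ± 0.305 TPM. Of 6 tested fibroblast markers, 3 were higher and 2 lower in dKO and 5 higher and 1 lower in dCD, with 3 at least 2-fold higher in each. At that size 6.01% of all tested genes were higher in dKO and 4.62% in dCD. For calls of any size the background shares were 43.4% higher and 28.4% lower in dKO, and 28.9% and 29.5% in dCD. The stem cell markers summed to 13979 to 14454 TPM in WT, 7285 to 7356 TPM in dKO and 10628 to 11016 TPM in dCD, with 8 of 10 lower and 1 higher in each mutant line. Most of the difference in dKO was Dppa5a (6433 ± 231 TPM in WT and 1199 ± 15.4 TPM in dKO), and Klf4 was the one that rose there (0.76, limma adjusted p = 4.26e-09). The part of such shifts in the results above was not tested.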

How the data were processed

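Of the 48 samples of the series, the 9 RNA-seq libraries were used (3 per line, grouped by title), and the chromatin and nascent RNA samples were not analysed here. The deposited table holds TPM for every gene in each library beside the gene's length, and each library sums to 1000000. Per the submitters' processing notes, HISAT2, featureCounts and DESeq2 were used on build mm9. Annotation, strand setting and versions were not given in the sources used here. TPM times length came out as whole reads for 100% of values within 0.01, which gave the depths.

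A gene was tested if it reached 1 TPM in 3 or more of the 9 libraries. All libraries entered 1 fit on log2(TPM + 1) with limma 3.58.1 (R 4.3.3), using lmFit and trended eBayes, two-sided, with p-values adjusted by Benjamini and Hochberg over all tested genes. This scale understates the change of low genes. The script was tested on data simulated from the WT means with few genes changed in dKO. Such data lack the broad differences seen here and do not check the scaling between libraries. Tables and plots used Python 3.11.15, pandas 2.3.3, numpy 2.4.6 and matplotlib 3.10.9. Members and lists were chosen with earlier results of these data known. Named were all 10 members, up to 4 called genes per list and comparison by smallest p-value with both directions present, and the 3 genes most like each member; the text gives some of these. Deviations of same-numbered libraries from their line's mean correlated at -0.05 to 0.04, so the numbers did not pair libraries. Replicates differed by more than sampling noise (chi-square per degree of freedom 1.58 to 4.14). Alternatives were another pseudocount, 2 other filters, 2 scalings, voom on the recovered reads, only the 2 lines compared, a replicate block, and each library left out.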

Additional observations from a re-analysis of the deposited data

How the results depend on the processing

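Of 510 values of the 10 genes (30 gene and comparison pairs under 17 settings), 492 kept their direction and their side of the threshold, 14 kept their direction but lost the call, 1 gained it and 3 changed sign. The 3 sign changes were all of Psph in dCD against WT, at 0.0017 under quantile normalization, 0.03 without WT replicate 3 and 0.0030 without dCD replicate 2, in a range of -0.0567 to 0.0326 without 1 library. Leaving out 1 library gave 11084 to 11672 called genes for dKO against WT, 8717 to 9382 for dCD against WT and 10620 to 11259 for dKO against dCD. Between 9 and 10 of the members differed among the lines without 1 library. With voom on the recovered reads 11633, 9946 and 11428 genes were called. No count of called genes moved by over 1.5 times in any setting. After median-ratio scaling the share of called genes that were higher was 50.5% in place of 60.4% for dKO against WT and 49.8% in place of 61.0% for dKO against dCD. With the replicate block 11533, 9273 and 11114 genes were called in the 3 comparisons, and among the members Psph in dKO against dCD lost its call (0.12, limma adjusted p = 0.0534). Values of Ddit3, Chac1 and, in dKO, Cth rest on the fewest reads, from 180 per library.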

Other observations

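The genes beside each member on its chromosome were read from a GRCm38 table, with up to 2 protein-coding genes on each side. Of 40 neighbours, 30 were tested. In dKO 14 were higher and 9 lower than in WT, and in dCD 8 were higher and 12 lower. Over all tested genes these shares were 43.4% and 28.4% in dKO and 28.9% and 29.5% in dCD, so the dKO counts were near the background. Next to Cth, whose level differed most, Ankrd13c measured 22.9 ± 0.306 TPM in WT and 21.1 ± 0.591 TPM in dKO (SD, n = 3; log2 fold change -0.11, limma adjusted p = 0.0125), and Zranb2 and Srsf11 were at 0.30 and 0.14 (limma adjusted p = 0.000104 and 0.000375). Next to Asns, C1galt1 rose in dKO (0.49, limma adjusted p = 3.28e-05) while Asns fell, and Sdhaf3 was at 0.36 (limma adjusted p = 0.00470).

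The nearest genes on both sides of Shmt2 changed by more than Shmt2 did. Ndufa4l2, whose model overlaps that of Shmt2, fell from 99.2 ± 7.78 TPM in WT to 47.0 ± 12.1 TPM in dKO and 23.7 ± 0.628 TPM in dCD (log2 fold changes -1.09 and -2.02, limma adjusted p = 9.35e-05 and 1.80e-06). Nxph4 went from 12.1 ± 1.19 TPM to 19.1 ± 2.23 TPM in dKO and 4.87 ± 0.393 TPM in dCD (0.61 and -1.16, limma adjusted p = 0.000159 and 2.59e-06). Near Atf4, which rose, Mgat3 fell in dKO from 34.5 ± 1.62 to 13.8 ± 0.336 TPM (-1.26, limma adjusted p = 8.02e-09) and did not pass the test in dCD (-0.02, limma adjusted p = 0.727).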
